A study of Mus musculus with 33 samples.

Results

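The genes described here are 10 markers and makers of the inhibitory interneurons of the retina: Tfap2a, Tfap2b, Prox1, Onecut1, Onecut2, Lhx1, Calb2, Gad1, Gad2 and Slc32a1. They were chosen by gene symbol, and all 10 were found among the 47729 genes of the count tables. The cells were retinal progenitor cells from embryonic day 14 retina of C57BL/6J mice, profiled by bulk RNA sequencing in 33 libraries that form 11 groups of 3. Cells at day 0 were untreated, cone primed with COCO protein, or rod primed with taurine and retinoic acid. Cells at days 5, 12, 21 and 35 were under cone induction with COCO protein or under rod induction with taurine and retinoic acid. All groups share the C57BL/6J genotype and the embryonic starting tissue, and the untreated group is from day 0 alone. The labels number the libraries but do not say whether they came from separate animals or cultures, so the p-values measure the spread between these libraries, which may be technical.

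Horizontal cells and amacrine cells shape the signals that pass from photoreceptors to ganglion cells, and most of them release the inhibitory transmitters GABA or glycine. Both types arise from retinal progenitors in which Foxn4 and Ptf1a are switched on. The AP-2 factors Tfap2a and Tfap2b then act in amacrine and horizontal precursors, and Onecut1, Onecut2, Lhx1 and Prox1 act in the horizontal branch. Calb2 encodes calretinin, a calcium-binding protein of amacrine and ganglion cells, Gad1 and Gad2 encode the enzymes that make GABA, and Slc32a1 encodes the transporter that loads GABA and glycine into vesicles. None of these genes is found in 1 cell type alone: Prox1 also marks progenitors, bipolar cells and lymphatic endothelium, Tfap2a and Tfap2b act in neural crest, lens and surface ectoderm, and Gad1 and Gad2 mark inhibitory neurons across the brain.

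On mouse build GRCm38, Gad1 (chr2:70553072-70602014), Gad2 (chr2:22622205-22693874) and Slc32a1 (chr2:158610767-158615748) lie on the plus strand. Tfap2b (chr1:19208914-19238576) and Onecut1 (chr9:74861921-74891781) are also on the plus strand, and Prox1 (chr1:190118035-190170714) and Lhx1 (chr11:84518284-84525535) on the minus strand. RefSeq promoter windows on GRCm38.p6, from 250 bases before to 50 bases after the start, were matched for 8 of the 10 genes in 10 windows. The stretches below lie before the RefSeq start of the window and outside annotated exons, and run 5′ to 3′ on the plus strand. They are shown for the 2 GABA-synthesising genes and for Tfap2b, the member whose levels ran closest to those of Gad1. Capitals mark a match to a searched motif. The Gad2 stretch is chr2:22622077-22622204, the Gad1 stretch is chr2:70561879-70562041 and the Tfap2b stretch is chr1:19211804-19212053. The Gad1 and Tfap2b stretches lie inside the gene spans given above, past the first annotated base of each gene. For Gad2 the RefSeq start (22622327) also lies past the annotated start of the gene, and the stretch ends before that annotated start.
Gad2: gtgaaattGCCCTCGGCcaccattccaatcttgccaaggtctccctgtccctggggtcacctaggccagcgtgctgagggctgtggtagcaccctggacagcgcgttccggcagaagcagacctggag
Gad1: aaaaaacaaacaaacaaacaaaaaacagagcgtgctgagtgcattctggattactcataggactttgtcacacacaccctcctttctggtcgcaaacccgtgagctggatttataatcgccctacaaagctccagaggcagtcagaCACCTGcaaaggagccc
Tfap2b: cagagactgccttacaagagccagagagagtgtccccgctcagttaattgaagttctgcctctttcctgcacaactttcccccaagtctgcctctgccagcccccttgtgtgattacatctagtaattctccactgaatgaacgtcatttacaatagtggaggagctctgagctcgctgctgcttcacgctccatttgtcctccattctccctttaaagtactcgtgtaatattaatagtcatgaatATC

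Both strands of the windows were searched, and positions count the RefSeq start of each window as 0. The AP-2 motif GCCNNNGGC was found 2 times in the Gad2 window, from -242 to -234 and from -121 to -113, and in no other member's window. It was present in 16.6% of all 32851 promoter windows of 300 bases. The Onecut motif ATCAAT, present in 7.54% of windows, lay across the Tfap2b start from -3 to 2. The E-box CACCTG, present in 20.2%, was found in the Gad1 window from -104 to -99 and in the Slc32a1 window from -233 to -228. The homeodomain motif TAATTA, present in 5.29%, was found in 1 of the Tfap2a windows from -32 to -27. No member's window held ATCGAT (0.925% of all windows), CAGCTG (16.3%), the retinoic acid receptor half-site AGGTCA (16.3%) or its direct repeats with 5 or 2 letters between the copies (0.00913% each). The matches do not overlap one another, the second Gad2 match lies beyond the printed stretch, and a match is a description of these letters only.

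The 33 libraries held between 7511837 and 19166442 reads assigned to genes, and 18150 genes, all 10 members included, passed the filter on low counts. Levels are given as CPM, counts scaled to library size by TMM, and a floor of 3 counts corresponds to 0.174 to 0.407 CPM. Read counts without molecular identifiers are not independent molecules, so such floors cover counting error only. Log2 fold changes carry standard errors (SE) from 1 edgeR quasi-likelihood fit to all libraries, and a gene was called at an adjusted p under 0.05. Tfap2a lies on chromosome 13, Calb2 on chromosome 8 and Onecut2 on chromosome 18. In bulk samples, fewer cells of a type and less RNA per cell cannot be told apart.

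In the untreated cells the levels per kilobase of exon ran from Calb2 and Tfap2b at the top to Lhx1 at the bottom. Calb2 stood at 53.7 ± 7.38 CPM per kilobase (SD, n = 3) and Tfap2b at 47.5 ± 5.40, and their libraries overlapped. Tfap2a (13.5 ± 2.26) and Gad2 (12.9 ± 1.52) overlapped each other, and Gad1 (9.33 ± 2.65) overlapped both of them and Prox1 (9.05 ± 1.37). Onecut2 (5.10 ± 0.492), Slc32a1 (3.45 ± 0.424), Onecut1 (2.53 ± 0.388) and Lhx1 (0.341 ± 0.061) followed in that order without overlap. At day 35 the order had changed: Tfap2a (12.8 ± 1.12) and Prox1 (10.1 ± 1.85), whose libraries overlapped, led in the cone cultures. The means of the other 8 genes there lay at or below 1.99 CPM per kilobase, and in replicate 2 Tfap2b reached 3.78 and Gad1 2.56. In the rod cultures at day 35, Prox1 had the highest mean, 6.03 ± 0.617 CPM per kilobase. Onecut2 (2.37 ± 0.404), Tfap2b (2.30 ± 3.29) and Tfap2a (2.09 ± 0.615) came next with overlapping libraries, and in replicate 2 Tfap2b (6.10) was at the level of Prox1 (6.04).

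**Figure D1:**
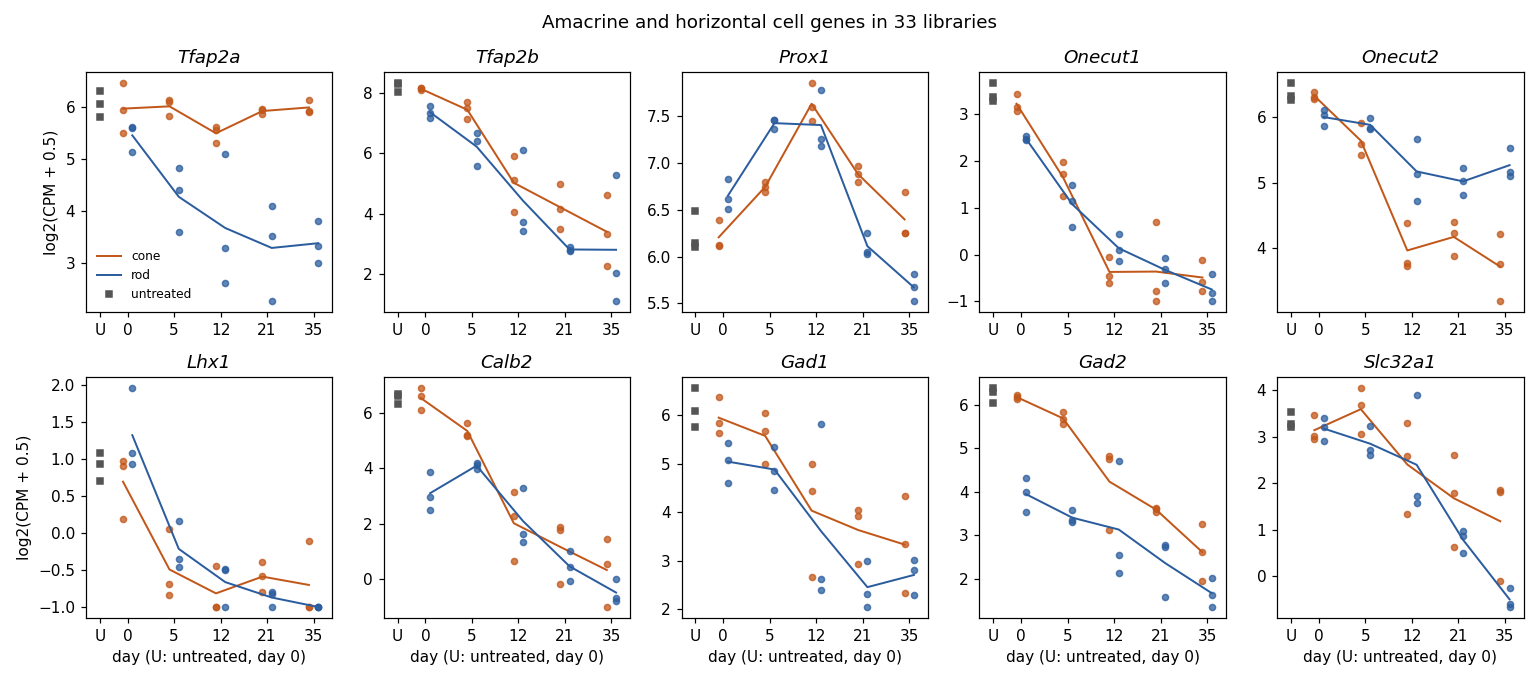
Levels of the 10 genes in every library, as log2(CPM + 0.5) on a separate vertical scale for each gene, by day on an evenly spaced axis. Points are libraries, lines join the means of the log2 values for cone (orange) and rod (blue) cultures, and grey squares are untreated cells; Tfap2a lies between 38.8 and 87.3 CPM in all cone libraries, and Prox1 is highest on day 12 in the cone cultures and on days 5 and 12 in the rod cultures.

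Calb2 and Gad2 fell on rod priming, and no member was called on cone priming. Of 10 members, 2 were called in rod primed against untreated cells, both lower, where 10.3% of all genes were called (6.71% higher and 3.56% lower). The median log2 fold change of the members was -0.73, against 0.0 over all genes. In cone primed against untreated cells, 0 members were called and 0 had an unadjusted p under 0.05. There edgeR called 0.0% of all genes, and 200 had an unadjusted p under 0.05. DESeq2 and voom also called 0 members, and 0 of all genes. The intervals of the cone priming ratios were wide: 0.513 to 2.00 for Calb2 and 0.527 to 1.74 for Gad2 (95% intervals of the ratio).

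Calb2 stood at 79.1, 98.4 and 103 CPM in the untreated libraries, at 69.3, 118 and 96.9 CPM after cone priming, and at 14.1, 5.14 and 7.27 CPM after rod priming. Every rod primed library lay below every untreated and every cone primed library. The fall against untreated cells was 10.8-fold (log2 fold change -3.43 ± 0.57, adjusted p = 0.000221). Gad2, which makes the synaptic pool of GABA, stood at 83.2, 65.7 and 77.8 CPM in untreated cells and at 19.4, 11.1 and 15.4 CPM after rod priming. Its groups did not overlap, and the fall was 4.95-fold (-2.31 ± 0.47, adjusted p = 0.00191). Gad1, which makes the bulk of cellular GABA, was at 53.2, 93.2 and 67.4 CPM in untreated and at 33.4, 42.5 and 23.9 CPM in rod primed cells. Those libraries did not overlap either, but the difference missed the threshold (-1.10 ± 0.63, adjusted p = 0.292). Slc32a1 had a log2 fold change of -0.17 ± 0.56 on rod priming and an interval of the ratio from 0.415 to 1.92.

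Among the transcription factors, the values on rod priming were -0.60 ± 0.41 for Tfap2a, -0.87 ± 0.68 for Tfap2b, -1.04 ± 0.46 for Onecut1, -0.37 ± 0.22 for Onecut2, 0.60 ± 0.69 for Lhx1 and 0.40 ± 0.15 for Prox1, and none was called. The number of members called here moved with the fit on the same counts, as did the number over all genes (1864 of 18150 in the main fit). DESeq2 called 4 members and 2397 of 18150 genes, and voom with quality weights 7 members and 3768 of 18150. An edgeR fit to the compared libraries alone called 7 members and 2912 of 14620 genes. In the main fit 6.71% of all genes were higher and 3.56% lower on rod priming, the shares that stand beside the lists that follow. Of 7 ganglion cell genes, a cell type that also uses Calb2, 2 fell on rod priming, Pou4f1 (-1.92 ± 0.48) and Isl2 (-1.26 ± 0.39), and 5 were not called. The summed level of those 7 genes was 159 to 248 CPM in untreated and 53.9 to 133 CPM in rod primed libraries. The 8 general neuronal genes summed to 2205 to 2794 CPM in untreated and 1737 to 1882 CPM in rod primed libraries, with 0 of 8 called. Retinal progenitor genes moved the other way, with 5 of 10 called higher and 1 lower; Ccnd1 rose by 2.21 ± 0.24 on the log2 scale. Of 6 genes of Muller glia and astrocytes 4 were called higher, among them Slc1a3 (1.45 ± 0.21), and their sum was 211 to 247 CPM in untreated and 435 to 471 CPM in rod primed libraries. The part of these shifts in the Calb2 and Gad2 results was not tested.

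**Figure D2:**
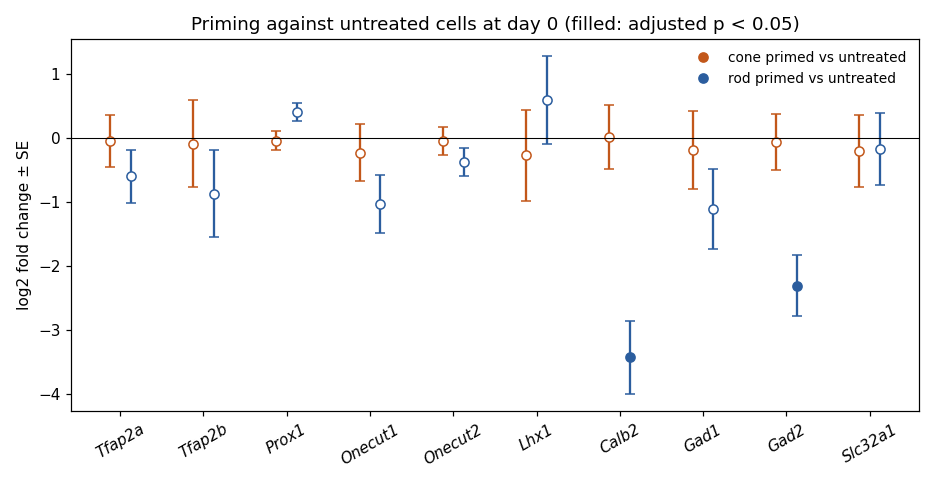
Log2 fold change ± SE of each gene after cone priming (orange) and rod priming (blue) against untreated cells at day 0; filled points have an adjusted p under 0.05. Calb2 at -3.43 and Gad2 at -2.31 after rod priming are the 2 filled points.

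Most of these genes fell over the 35 days in both conditions. Against cone primed cells, 8 of 10 members were lower at day 35 of cone induction and 0 higher, where 57.7% of all genes were called (31.1% higher and 26.5% lower). Against rod primed cells, 10 of 10 were lower at day 35 of rod induction, where 55.6% were called (29.4% higher and 26.2% lower). The members' medians were -2.77 in the cone and -2.99 in the rod cultures, against 0.0265 and 0.0355 over all genes; the rod median stays at -2.99 with Lhx1 set to its bound. Tfap2a and Prox1 were the members not called in the cone cultures. The counts carried these calls. On the authors' deposited TPM, a weak check for the reason given under the processing, 1 member was called in each of these 2 comparisons. Of 19223 genes tested, the TPM fit called 1519 in the cone and 1171 in the rod comparison.

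The steps between neighbouring days were tested in turn. From cone primed cells to day 5, 4 members were called (22.3% of all genes), with Onecut1, Onecut2 and Lhx1 lower and Prox1 higher. From day 5 to day 12 of cone induction 6 were called (43.2%), with Tfap2b, Onecut1, Onecut2, Calb2 and Gad2 lower and Prox1 higher. From day 12 to day 21 only Prox1 was called, lower (3.36%). From day 21 to day 35 edgeR called 0 (0.915%), with 1 member at an unadjusted p under 0.05. Voom called 1 member there, and 2357 of 18150 genes. In the rod cultures 3 were called from primed cells to day 5 (17.5%), Onecut1 and Lhx1 lower and Prox1 higher. From day 5 to day 12 there were 2, Onecut2 and Calb2, both lower (18.3%), and from day 12 to day 21 there were 4, Prox1, Calb2, Gad1 and Slc32a1, all lower (11.2%). From day 21 to day 35 edgeR called 0 (1.54%), with 2 at an unadjusted p under 0.05. DESeq2 called 1 member there, and 748 of 18150 genes.

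Cone and rod cultures were also compared at each day. The count of members called was 2 on day 0 (7.27% of all genes), 3 on day 5 (9.28%), 2 on day 12 (10.1%), 3 on day 21 (9.0%) and 4 on day 35 (12.3%). Averaged across days 5 to 35, 6 were called, 5 higher in cone cultures and 1 lower, where 27.8% of all genes were called (15.6% higher and 12.2% lower). A change of the cone minus rod difference with day was called for 2 members, Prox1 and Onecut2, where 9.22% of all genes were called.

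Tfap2a, an AP-2 factor of amacrine and horizontal precursors, fell in the rod cultures and was called at no step of the cone cultures. It stood at 87.3, 44.4 and 61.0 CPM in cone primed cells and at 69.3, 59.5 and 60.2 CPM at day 35 of cone induction, with overlapping libraries (-0.02 ± 0.41, interval of the ratio from 0.565 to 1.71). In the rod cultures it went from 48.6, 47.9 and 34.8 CPM to 7.56, 13.5 and 9.62 CPM at day 35, without overlap. That fall was 4.27-fold (-2.09 ± 0.44, adjusted p = 0.000248).

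The cone libraries lay above the rod libraries for Tfap2a at every day from 5 to 35. At day 5 the cone libraries held 69.0, 67.4 and 55.7 CPM and the rod libraries 11.7, 20.6 and 27.7 CPM. At day 21 they held 61.8, 60.7 and 57.3 CPM against 16.5, 4.32 and 11.0 CPM. The spread among the rod libraries was several times that among the cone libraries at day 12, where they held 9.35, 33.8 and 5.70 CPM against 38.8, 48.6 and 46.6 CPM.

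Tfap2a was higher in cone than in rod cultures by a log2 fold change of 1.67 ± 0.42 on day 5 (adjusted p = 0.0116), 1.45 ± 0.43 on day 12 (0.0272), 2.49 ± 0.44 on day 21 (0.0005) and 2.62 ± 0.45 on day 35 (0.000204). Averaged across days 5 to 35 the difference was 2.06 ± 0.22 (adjusted p = 4.28e-08), and it kept its call in all 31 alternatives on counts. At day 0 the difference was 0.55 ± 0.41 and not called. The change of the difference with day missed the threshold (adjusted p = 0.0849). The day 5 call was lost without rod day 5 replicate 1 (adjusted p = 0.0895). The day 12 call was lost in the fit to the compared libraries alone (0.309) and without cone day 12 replicate 2 (0.0587) or 3 (0.077) or rod day 12 replicate 1 (0.0937) or 3 (0.148), and without rod day 12 replicate 2 the value was 2.57.

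Markers of other tissues that use Tfap2a also differed between the conditions. Mesenchyme and neural crest genes summed to 430 to 2596 CPM in cone and 210 to 615 CPM in rod libraries at day 35, and of 5 tested, 4 were higher and 1, Foxc1, lower in cone cultures over the mean of days. The collagen genes Col1a1 and Col3a1 made up most of these sums. Their day 35 means were 982.5 and 653.3 CPM in cone cultures, where the mean sum was 1786, and 159.7 and 100.7 CPM in rod cultures, where it was 350. At day 5, where Tfap2a already differed, the sums were 21.5 to 68.7 and 6.15 to 15.4 CPM. Among the cone libraries of day 35, replicate 2 had the lowest mesenchyme sum (430 CPM against 2330 and 2596) and a Tfap2a level of 59.5 CPM against 69.3 and 60.2. Lens genes summed to 2.83 to 5.49 CPM in cone and 2.29 to 2.65 CPM in rod libraries at day 35, with Lim2 at 0. Surface epithelium genes summed to 1.54 to 2.50 and 0.085 to 0.323 CPM, with Krt8 and Krt14 at 0 in both. Of the tested genes, 4 of 5 lens genes and 2 of 3 surface epithelium genes were higher in cone cultures over the mean of days. Over all genes 15.6% were higher and 12.2% lower in that comparison. The part of these tissues in the Tfap2a result was not tested. The genes whose 11 group means ran closest to those of Tfap2a were Cerk (Pearson r 0.94), Olig2 (0.92) and Gng2 (0.92), among 11917 genes searched.

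Tfap2b, the paralog that starts at a higher level, fell in both conditions. It stood at 273, 289 and 286 CPM in cone primed cells and at 4.27, 24.0 and 9.52 CPM at day 35 of cone induction. In rod primed cells it stood at 161, 188 and 146 CPM and at day 35 at 1.61, 38.7 and 3.55 CPM, where replicate 2 held 15.0 times the mean of the other libraries. No day 35 library reached a primed one. The falls were 22.5-fold in cone cultures (-4.49 ± 0.80, adjusted p = 2.74e-05), or -5.36 without replicate 2 of day 35, and 11.4-fold in rod cultures (-3.51 ± 0.77, adjusted p = 0.000363), where the value without replicate 2 of day 35 was -5.96. The step from day 5 to day 12 in cone cultures (-2.27 ± 0.72, adjusted p = 0.0122) was lost without cone day 12 replicate 3 (0.0647).

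Cone against rod, Tfap2b was called at no day. Its log2 fold change at day 35 was -0.21 ± 0.75, and without rod day 35 replicate 2 it was 2.24 with an adjusted p of 0.0648. That library also had the highest mesenchyme and neural crest sum of its group, 615 CPM against 225 and 210, and the lowest neuronal sum, 195 CPM against 252 and 224. The difference averaged across days was 0.71 ± 0.37 (adjusted p = 0.156). The closest genes over the 11 groups were Scrt2 (r = 0.997), Pard6b (0.99) and Tagln3 (0.99). Among the members, Tfap2b and Gad1 ran closest together, with an r of 0.99. These correlations describe group means that share libraries and culture time.

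Onecut1 and Onecut2, which act in horizontal cell and early neuron specification, were both lower at day 35 in both conditions, with a larger fitted fall of Onecut1 in each. Onecut1 stood at 7.93, 10.4 and 8.38 CPM in cone primed cells and at 5.02, 4.94 and 5.30 CPM in rod primed cells. By day 12 it was at 0.467, 0.155 and 0.232 CPM in cone and at 0.857, 0.409 and 0.577 CPM in rod cultures, between 2 and 12 counts a library. By day 35 it fell 38.0-fold in cone (-5.25 ± 0.63, adjusted p = 6.14e-08) and 45.6-fold in rod cultures (-5.51 ± 0.70, adjusted p = 2.27e-07). Those day 35 libraries held 2, 5 and 1 counts in cone and 3, 0 and 1 counts in rod cultures, and the values were -6.06 without cone day 35 replicate 2 and -6.83 without rod day 35 replicate 1. No difference between cone and rod was called for it at any day. Its fall to day 5 was lost in cone cultures without cone day 5 replicate 2 (adjusted p = 0.0619), and in rod cultures without rod day 5 replicate 1 (0.104) or 2 (0.0849) or any 1 rod primed library (0.0595 to 0.0698).

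Onecut2 was lower in cone than in rod cultures from day 12 on. It stood at 82.9, 79.2 and 77.5 CPM after cone priming and at 65.1, 57.7 and 69.0 CPM after rod priming. At day 12 the cone libraries held 13.2, 20.5 and 12.8 CPM and the rod libraries 34.8, 25.8 and 50.3 CPM, and at day 35 they held 8.62, 18.1 and 13.0 CPM against 46.0, 35.5 and 33.9 CPM. The rod libraries lay above all cone libraries at days 12, 21 and 35 and overlapped them at day 5.

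For Onecut2 the cone minus rod log2 difference was -1.25 ± 0.23 on day 12 (adjusted p = 0.00054), -0.85 ± 0.23 on day 21 (0.0164) and -1.54 ± 0.23 on day 35 (4.62e-05), after 0.32 ± 0.22 on day 0 and -0.23 ± 0.22 on day 5, both not called. The change of this difference with day was called (adjusted p = 0.00126). The fall from primed cells to day 35 was 6.03-fold in cone (-2.59 ± 0.23) and 1.66-fold in rod cultures (-0.73 ± 0.22). The day 21 call was lost without cone day 21 replicate 1 (adjusted p = 0.0748) or rod day 21 replicate 2 (0.0818), and the day 12 call in the fit to the compared libraries alone (0.0935). The fall to day 5 in cone cultures (-0.67 ± 0.22) was lost in 5 of 13 alternatives, each without 1 library: cone primed replicate 1 (adjusted p = 0.0736), 2 (0.0648) or 3 (0.0609) or cone day 5 replicate 1 (0.1) or 2 (0.141). The step from day 5 to day 12 in rod cultures (-0.67 ± 0.22) was lost in 7 of 13, namely voom (0.12), the compared libraries alone (0.126), and without rod day 5 replicate 1 (0.056), 2 (0.109) or 3 (0.0592) or rod day 12 replicate 1 (0.107) or 2 (0.103). On the authors' deposited TPM the falls to day 35 turned to 0.13 in cone and 0.31 in rod cultures, not called. The TPM are a weak check, as coding genes exceeded their overlapping antisense genes in only 18.7% of pairs there. The closest genes to Onecut2 over the groups were Bend5 (0.98), Zfp1 (0.98) and Rax (0.98), a regulator of retinal progenitors; those of Onecut1 were Zfp316, Hdgfrp3 and Lrp12 (0.99 each).

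Lhx1, which places horizontal cells in their layer, was the least abundant member. It had 11, 8 and 14 counts in the cone primed libraries and 25, 14 and 18 in the rod primed ones. At day 5 it had 8, 2 and 1 counts in cone and 2, 4 and 9 in rod cultures, below the primed level of each condition (-2.26 ± 0.82, adjusted p = 0.0484, and -2.40 ± 0.77, adjusted p = 0.0334). At day 35 it had 0, 5 and 0 counts in the cone libraries, where the fall was called (-2.94 ± 0.92, adjusted p = 0.00823). The 3 rod libraries of day 35 held 0 counts, at least 28.3-fold lower than rod primed cells against a floor of 3 counts over the group. The cone call at day 5 was lost in 7 of 12 alternatives: RLE scaling (adjusted p = 0.0512), no filter (0.0721), and without cone primed replicate 1 (0.111), 2 (0.057) or 3 (0.145) or cone day 5 replicate 2 (0.17) or 3 (0.19). Without cone day 5 replicate 1 that value was -3.50. The rod call at day 5 was lost without rod primed replicate 1 (0.146) or 3 (0.0524) or rod day 5 replicate 1 (0.102) or 2 (0.127). The cone value at day 35 rests on replicate 2, the one library with counts, and was -6.83 without it. No difference between cone and rod cultures was called for Lhx1 at these counts.

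Prox1, a homeobox factor of horizontal cells, progenitors and several other retinal cells, rose before it fell. In the cone cultures it stood at 68.7, 83.2 and 69.1 CPM after priming, at 111, 107 and 103 CPM on day 5, at 174, 193 and 232 CPM on day 12, and at 75.8, 103 and 75.7 CPM on day 35. In the rod cultures it stood at 113, 97.8 and 91.0 CPM after priming, at 175, 176 and 164 CPM on day 5, at 153, 145 and 219 CPM on day 12, and at 55.7, 50.7 and 45.4 CPM on day 35. The cone peak came on day 12, and the rod libraries of days 5 and 12 overlapped (0.00 ± 0.14, interval of the ratio from 0.825 to 1.22).

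The steps of Prox1 were called in turn. In cone cultures it rose by 0.54 ± 0.15 to day 5 and by 0.90 ± 0.14 to day 12 (adjusted p = 0.00908 and 1.6e-05), then fell by 0.77 to day 21 (adjusted p = 0.00382). In rod cultures it rose by 0.77 ± 0.15 to day 5 (adjusted p = 0.000505) and fell by 1.32 from day 12 to day 21 (adjusted p = 2.78e-05); that last call was lost in the fit to the compared libraries alone (0.0685).

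The cone minus rod difference of Prox1 turned with day. It was -0.45 ± 0.15 on day 0 (not called, adjusted p = 0.0616), -0.69 ± 0.14 on day 5 (0.00259), 0.21 ± 0.14 on day 12 (not called), 0.77 ± 0.15 on day 21 (0.000915) and 0.74 ± 0.15 on day 35 (0.000972). At day 5 every rod library lay above every cone library, and at days 21 and 35 every cone library lay above every rod library. The change with day had an adjusted p of 3.15e-05. The closest genes were Frem2 (r = 0.95), Syk (0.92) and Slc24a1 (0.91). Of 6 endothelial and lymphatic genes 4 were tested, and over the mean of days 2 were higher and 1, Flt4, lower in cone cultures (-1.80 ± 0.16). Over the same mean, 1 of 10 retinal progenitor genes was higher and 5 were lower in cone cultures. For the 5 bipolar cell genes these counts were 0 and 1. Over all genes 15.6% were higher and 12.2% lower. On day 35 Flt4 stood at 55.7 to 84.4 CPM in cone and 237 to 305 CPM in rod libraries. The means of Kdr (174.5 against 69.1 CPM) and Pdpn (229.8 against 182.3 CPM) were higher in cone cultures, and Lyve1 had at most 1.05 CPM in a day 35 library. Kdr was already at means of 343.8 CPM in cone primed and 300.7 CPM in rod primed cells. Pecam1 had a mean of 2.33 CPM at day 35 of cone induction. Cdh5 had 0 counts in the untreated, rod primed and day 5 groups, so these sums and means do not establish endothelial cells. The part of these genes in the Prox1 result was not tested.

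**Figure D3:**
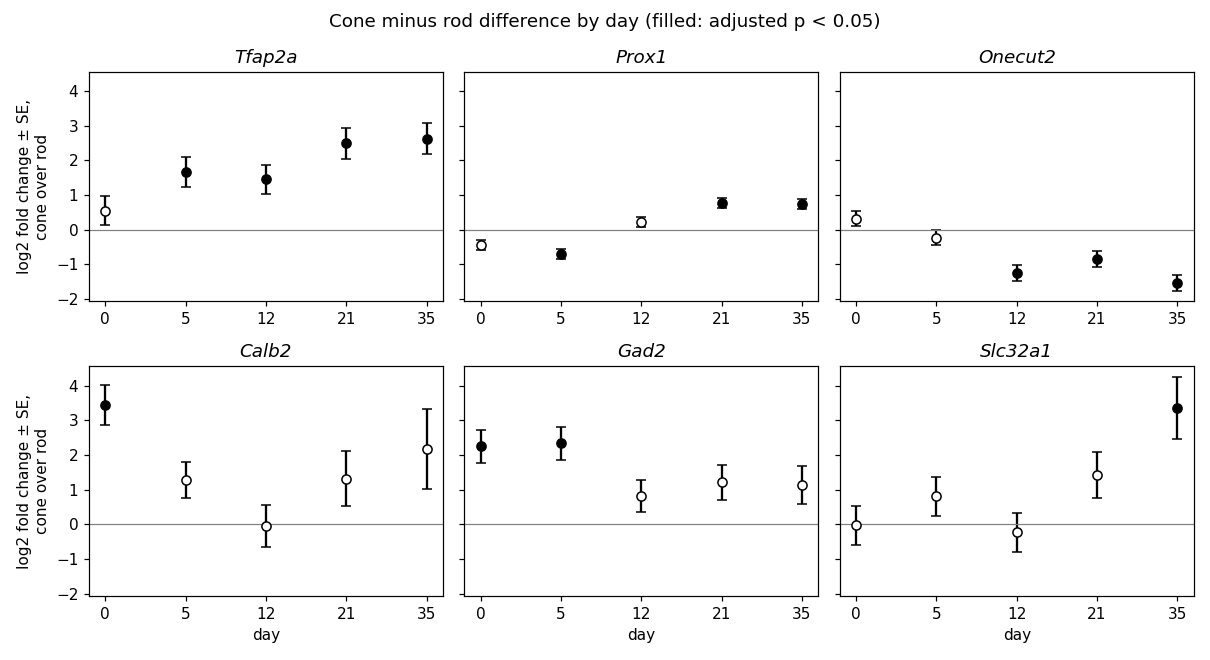
Log2 fold change ± SE of cone over rod cultures at each day for the 6 genes called over the mean of days 5 to 35; filled points have an adjusted p under 0.05. Prox1 goes from -0.69 at day 5 to 0.74 at day 35, Onecut2 from 0.32 at day 0 to -1.54 at day 35, and Tfap2a stays above 0.

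Calb2 had the largest fitted fall of the 8 members called in the cone cultures. It went from 69.3, 118 and 96.9 CPM after priming through 49.5, 36.9 and 36.0 CPM at day 5 and 4.32, 8.31 and 1.08 CPM at day 12 to 0.0, 2.23 and 0.968 CPM at day 35. The fall from primed cells was 88.5-fold (-6.47 ± 0.71, adjusted p = 1.27e-08), and -7.57 on the log2 scale without cone day 35 replicate 2. In the rod cultures, which started lower, it stood at 15.4, 17.8 and 16.9 CPM at day 5 and at 0.51, 0.0809 and 0.129 CPM at day 35, with 6, 1 and 2 counts. That fall was 36.4-fold (-5.19 ± 0.90, adjusted p = 2.26e-05), and -6.24 on the log2 scale without rod day 35 replicate 1.

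At day 0 Calb2 was 10.9-fold higher in cone than in rod primed cells (3.45 ± 0.57, adjusted p = 0.000266). At day 5 the cone libraries still lay above all rod libraries, but the difference was not called (1.29 ± 0.52, adjusted p = 0.131), and at day 12 it was -0.04 ± 0.60 with overlapping libraries. Over the mean of days it was 1.18 ± 0.40 (adjusted p = 0.0293), a call lost in 8 of 31 alternatives. These were the compared libraries alone (0.053) and the fits without cone day 12 replicate 2 (0.0784), cone day 21 replicate 2 (0.0592) or 3 (0.0541), cone day 35 replicate 2 (0.158), rod day 21 replicate 3 (0.0547) and rod day 35 replicate 2 (0.0577) or 3 (0.0633). In the rod cultures the step from day 5 to day 12 was -1.82 ± 0.57 (adjusted p = 0.0247) and that from day 12 to day 21 was -2.33 ± 0.72 (0.037), and each was lost in 6 of 13 alternatives. Without rod day 12 replicate 2 these steps were -2.88 and -1.33, the second with an adjusted p of 0.408. The first was lost with DESeq2 (0.0749), the compared libraries alone (0.0926) and without rod day 5 replicate 2 (0.0681) or 3 (0.0552) or rod day 12 replicate 1 (0.116) or 3 (0.125). The second was also lost with voom (0.0932), the compared libraries alone (0.187) and without rod day 21 replicate 1 (0.0525), 2 (0.0904) or 3 (0.166). The change with day missed the threshold (adjusted p = 0.0509). The closest genes to Calb2 were Kif5a, Sbf1 and Fat3 (0.99 each); Fat3 is an adhesion protein that shapes amacrine cell processes.

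Gad2 was lower in rod than in cone cultures at day 5 as at day 0. The cone libraries held 56.6, 51.0 and 46.7 CPM and the rod libraries 9.66, 9.30 and 11.4 CPM, without overlap, a 5.07-fold difference (2.34 ± 0.48, adjusted p = 0.00184). At day 0 the difference had been 4.74-fold (2.25 ± 0.47, adjusted p = 0.00327). At days 12, 21 and 35 it was 0.82 ± 0.46, 1.21 ± 0.50 and 1.14 ± 0.55, not called. Over the mean of days it was 1.38 ± 0.25 (adjusted p = 0.000116), and its change with day was not called (adjusted p = 0.285). From primed cells to day 35 Gad2 fell 12.0-fold in cone cultures (-3.58 ± 0.51) and 5.57-fold in rod cultures (-2.48 ± 0.53). The step from day 5 to day 12 in cone cultures (-1.31 ± 0.45, adjusted p = 0.0213) was lost without cone day 12 replicate 3 (0.118). The closest genes were Gpsm1 (r = 0.98), Cxxc4 (0.98) and Daam1 (0.97).

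Gad1 fell in both conditions without a called difference between them. It went from 56.3, 49.1 and 82.6 CPM in cone primed cells to 4.52, 19.6 and 9.60 CPM at day 35, and from 33.4, 42.5 and 23.9 CPM in rod primed cells to 4.42, 7.60 and 6.46 CPM. The falls were 5.57-fold (-2.48 ± 0.67, adjusted p = 0.00235) and 5.38-fold (-2.43 ± 0.69, adjusted p = 0.00392), and the cone value was -3.15 without cone day 35 replicate 2. At day 12 the rod libraries held 4.78, 55.8 and 5.62 CPM, so replicate 2 held 10.7 times the mean of the others. The called fall from day 12 to day 21 in rod cultures (-2.08 ± 0.68, adjusted p = 0.049) was 0.0034 without that library, and the cone minus rod difference at day 12 went from -0.19 ± 0.64 to 1.89 (adjusted p = 0.0399). The fall was also lost with the replicate block (0.0776), in the compared libraries alone (0.335) and without rod day 21 replicate 1 (0.143), 2 (0.135) or 3 (0.0868). The closest genes were Scrt2, Hdac9 and Tfap2b (0.99 each).

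Slc32a1 was not called between primed cells and day 5 and was lower at day 35 in both conditions. It stood at 7.55, 7.20 and 10.6 CPM in cone primed cells and at 12.3, 16.0 and 7.85 CPM at day 5 of cone induction, and the libraries overlapped. At day 35 the cone libraries held 0.427, 3.09 and 2.99 CPM and the rod libraries 0.34, 0.162 and 0.129 CPM, with 4, 2 and 2 counts. The cone libraries lay above the rod libraries by 10.2-fold (3.35 ± 0.90, adjusted p = 0.0135), a call lost with voom (0.0998) and without cone day 35 replicate 2 (0.0545) or 3 (0.0587) or rod day 35 replicate 3 (0.0651). Averaged across days 5 to 35 the difference was 1.34 ± 0.35 (adjusted p = 0.00468). The fall to day 35 was 3.87-fold in cone (-1.95 ± 0.62) and 40.4-fold in rod cultures (-5.34 ± 0.83), and the cone call was lost without cone day 35 replicate 1 (adjusted p = 0.0531). The fall from day 12 to day 21 in rod cultures (-2.42 ± 0.64, adjusted p = 0.016) was -1.10 without rod day 12 replicate 2 (0.366), and was also lost with voom (0.0842), the compared libraries alone (0.185) and without rod day 21 replicate 3 (0.0838). Among the closest genes were St6gal2 and Fgf14 (0.99 each).

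In some libraries several members were at the highest level of their group. Rod day 12 replicate 2 had the highest level of 6 members in its group, Gad1, Gad2, Slc32a1, Calb2, Tfap2a and Tfap2b. It also had the highest sum of the 8 neuronal genes (1240 CPM against 518 and 636) and of the photoreceptor genes (876 CPM against 53.0 and 112). Without it the count of members called between cone and rod cultures at day 12 was 4 in place of 2, between rod day 5 and day 12 it was 5 in place of 2, and between rod day 12 and day 21 it was 1 in place of 4. The number called over all genes without that library is not given here. These moves therefore cannot be read as particular to the members. Among the cone libraries of day 35, replicate 2 had the highest level of 9 of 10 members, the highest neuronal sum (403 CPM against 210 and 294) and the lowest mesenchyme sum. Cone day 12 replicate 2 had the highest level of 7 members and a neuronal sum of 874 CPM against 586 and 375. Rod day 5 replicate 3 also had the highest level of 7 members, with a neuronal sum of 1536 CPM against 1288 and 1658. Rod day 35 replicate 1 was listed highest for 6, among them Lhx1 at 0 counts in every library of that group. The share of all genes highest in each library was not counted, so such counts are not particular to the members. The part of the neuronal share of each library in these results was not tested.

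**Figure D4:**
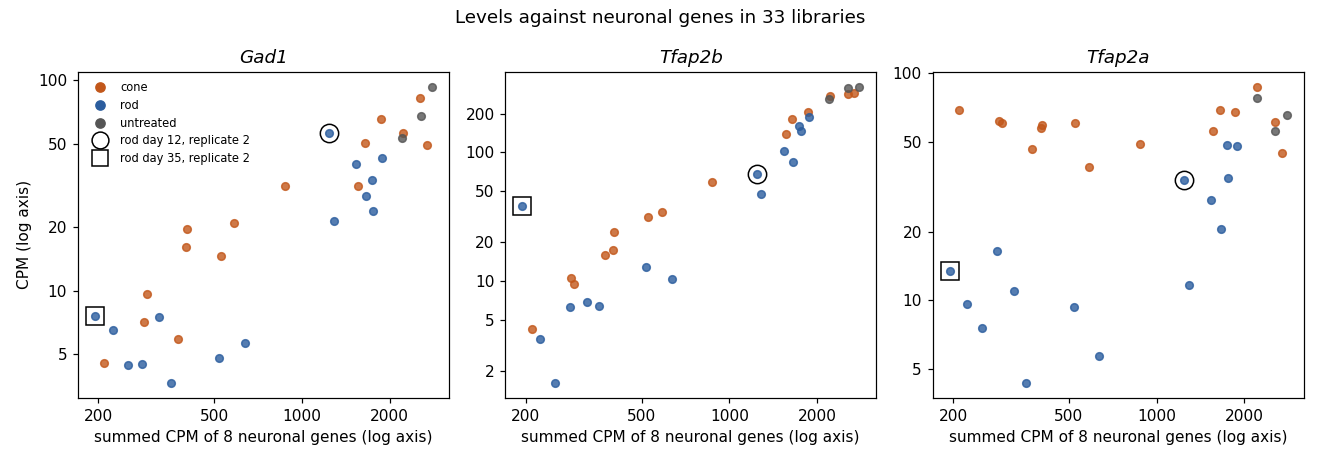
CPM of Gad1, Tfap2b and Tfap2a against the summed CPM of 8 general neuronal genes in 33 libraries, both on log axes, coloured by condition. Rod day 12 replicate 2 (circle; Gad1 at 55.8 CPM) lies near the day 5 libraries, rod day 35 replicate 2 (square; Tfap2b at 38.7 CPM) lies above the other day 35 libraries for Tfap2b, and the cone libraries hold Tfap2a between 38.8 and 87.3 CPM at all neuronal sums.

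Of 20 regulators of amacrine and horizontal fate, 19 were tested. At day 35 of cone induction 15 were lower and 1 higher, beside 26.5% lower and 31.1% higher over all genes. At day 35 of rod induction 14 were lower and 3 higher, beside 26.2% and 29.4%. Foxn4, which makes progenitors competent for both fates, had 466 counts after cone priming, 706 after rod priming and 0 at day 35 of both inductions, at least 183-fold and 330-fold lower against 3 counts over the group. Prdm13, a driver of amacrine fate, fell by 7.06 on the log2 scale in cone cultures and went from 544 counts to 1 in rod cultures. Onecut3 went from 198 counts to 2 in cone cultures, and Lhx9 from 351 to 1 in rod cultures. Lmo4 rose in both (0.78 ± 0.21 and 0.76 ± 0.21), and Ebf1 (1.69 ± 0.41) and Pax6 (0.60 ± 0.14) rose in rod cultures. On rod priming 0 of these regulators were higher and 3 lower: Ebf1 (-1.84 ± 0.41), Nr4a2 (-1.75 ± 0.26) and Pax6 (-0.57 ± 0.14). Over all genes 6.71% were higher and 3.56% lower there. Averaged across the days, 8 were higher in cone cultures, led by Lhx9 (2.66 ± 0.58), Prdm13 (2.54 ± 0.53) and Tfap2c (2.30 ± 0.40). Lower were 3, Ebf3 (-0.96 ± 0.22), Ebf1 (-0.61 ± 0.20) and Pax6 (-0.31 ± 0.07), beside 15.6% higher and 12.2% lower over all genes.

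Of 15 genes of GABA and glycine handling, all were tested. At day 35 the receptor subunit Gabra2 was lower in cone (-4.26) and in rod cultures (-3.46). The transporters Slc6a13 (2.08 ± 0.79 in cone and 3.65 ± 0.51 in rod cultures) and Slc12a2 (1.42 ± 0.15 and 2.15 ± 0.15) rose, as did the GABA-degrading enzyme Abat in cone cultures (1.26 ± 0.14) and the glycine transporter Slc6a9 in rod cultures (1.67 ± 0.21). In all, 7 were lower and 4 higher in cone cultures, beside 26.5% lower and 31.1% higher over all genes. In rod cultures 8 were lower and 4 higher, beside 26.2% and 29.4%. On rod priming 2 rose, Slc6a11 (0.84 ± 0.25) and Slc12a2 (0.74 ± 0.14), and 0 fell, beside 6.71% higher and 3.56% lower over all genes. In the mean across days 2 were higher in cone cultures, among them Abat (0.19 ± 0.07), where 15.6% of all genes were higher and 12.2% lower. Lower were 5, led by Slc6a13 (-2.33 ± 0.26), Slc12a2 (-1.03 ± 0.07) and Slc6a11 (-0.92 ± 0.12). Slc6a11, Slc6a13 and Slc6a9 are used by glia as well as by neurons.

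Of 18 subtype genes, 12 were tested. At day 35, 5 were higher and 3 lower in cone cultures, where 31.1% of all genes were higher and 26.5% lower. In rod cultures 4 were higher and 5 lower, where 29.4% of all genes were higher and 26.2% lower. Slc17a8, the vesicular glutamate transporter of a class of amacrine cells, went from 5 counts in cone primed cells to 1843 at day 35 (8.20 ± 0.58) and from 4 to 394 in rod cultures (6.06 ± 0.64). Megf10, an adhesion receptor of starburst amacrine and horizontal cells that Muller glia also express, rose by 2.68 ± 0.13 and 2.22 ± 0.13, and Nos1 by 2.46 ± 0.69 and 4.32 ± 0.83. Slc18a2 fell by 4.45 in cone cultures and went from 67 counts to 0 in rod cultures, at least 28.8-fold lower. Calb1 (-1.08 ± 0.30) and Stx1a (-0.94 ± 0.16) fell in cone, and Penk (-2.69 ± 0.45) and Slc18a3 (29 counts to 2) in rod cultures. On rod priming Calb1 (1.18 ± 0.30) and Dab1 (0.68 ± 0.15) rose and Stx1a (-0.54 ± 0.16) fell, beside 6.71% higher and 3.56% lower over all genes. Averaged across the days, 7 were higher in cone cultures, led by Penk (2.74 ± 0.24), Slc18a3 (2.54 ± 0.54) and Chat (2.50 ± 0.37). Lower were 3, Megf11 (-0.70 ± 0.21), Calb1 (-0.64 ± 0.15) and Dab1 (-0.59 ± 0.07), beside 15.6% higher and 12.2% lower over all genes.

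The counts of other cell types at day 35 stand beside 31.1% higher and 26.5% lower over all genes in cone cultures, and 29.4% and 26.2% in rod cultures. All 8 general neuronal genes were lower at day 35 in both conditions, among them Dcx (-6.31 ± 0.59 in cone and -6.85 ± 0.65 in rod cultures). Over the mean of days 6 of 8 were higher and 1 lower in cone than in rod cultures, beside 15.6% higher and 12.2% lower over all genes. Of 7 ganglion cell genes, 6 were lower at day 35 in each condition, and 1, Rbpms, was higher in rod cultures. Among 10 retinal progenitor genes, 3 were higher and 5 lower in cone cultures, and 2 higher and 4 lower in rod cultures. Of 6 genes of Muller glia and astrocytes, 5 were higher in cone and 4 higher and 1 lower in rod cultures, and Gfap went from 3 counts after priming to 5375 and 6761 at day 35. Forebrain GABA neuron genes summed to 3.61 to 5.81 CPM in cone and 9.60 to 14.2 CPM in rod libraries at day 35. Lhx8 alone made up most of these sums, with means of 4.31 of 4.56 CPM in cone and 7.97 of 11.5 CPM in rod cultures. Of 8 such genes 3 were tested, and Lhx8 was the 1 called higher in each condition. Dlx1 (170 counts to 2) and Dlx2 (162 to 3) were lower in cone cultures, and 0 were lower in rod cultures. Mesenchyme and neural crest genes had 5 of 5 tested higher in both conditions, with medians of 8.86 in cone and 6.38 in rod cultures; their sums were 1.99 to 6.67 CPM in cone primed and 6.55 to 15.6 CPM in rod primed libraries and reached the day 35 sums given beside Tfap2a. Of 6 photoreceptor genes, 3 were lower and 0 higher in each condition, Crx, Opn1sw and Gnat2. Of 5 bipolar cell genes, 3 were higher, Grm6, Trpm1 and Prkca, and 1 lower, Cabp5, in each condition. The part of these shifts in cell makeup in the falls of the members was not tested.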

How the data were processed

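Total RNA of 33 libraries was sequenced in bulk. The authors deposited, per library, raw counts per gene and a table of FPKM, TPM and coverage signal, per the file headers. HISAT2, StringTie, HTSeq and GRCm38 are named in the submitters' processing notes, without roles, and the strand setting is not given in the sources used here. Of the deposited values, the counts carry all levels and main tests, the TPM serve as an alternative, and the deposited FPKM and coverage signal were not used. Reads counted in genes were 26.9 to 34.9% of counted reads, and unassigned reads were left out.

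Counts were fitted with edgeR 4.0.16 (R 4.3.3) by its quasi-likelihood test after TMM scaling and filterByExpr at a minimum count of 10, in 1 fit of 33 libraries with 19 contrasts and Benjamini-Hochberg adjustment over 18150 genes. Alternatives were RLE scaling, other filters, a replicate block, DESeq2 1.42.0, voom and limma 3.58.1 on log2(TPM + 1), the compared libraries alone and leaving out each library.

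Genes were compared per kilobase of GENCODE exon in counts, not by TPM as first planned. A coding gene exceeded its overlapping antisense gene in 99.38% of 1444 pairs in counts and in 18.7% in TPM. Prox1 had a mean of 1378 counts and its antisense gene Prox1os 8.79, against 1.19 and 26.6 in TPM. Of 196 member values with 100 counts or more, 37 were listed at TPM 0. By these values the counts kept the coding strand and the TPM mostly did not, so the TPM fits are a weak check on the members. The members, lists and tests were chosen with earlier results of these data known. All members are named, and from each list at most 3 called genes per direction with the largest change at a mean log2 CPM of 0 or more. The 3 most alike genes have the highest Pearson r over 11 groups. Some genes that these rules name are not reported here.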

Additional observations from a re-analysis of the deposited data

Results flagged for a closer look

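The difference between cone and rod cultures changed with day for 2 of the 10 genes. For Prox1 the adjusted p of this change was 3.148e-05 (edgeR quasi-likelihood test over the 5 days): the cone minus rod log2 difference was -0.69 at day 5 and 0.74 at day 35. For Onecut2 it was 0.001256, with a difference of 0.32 at day 0 and -1.54 at day 35.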

How the results depend on the processing

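Of 60 called values, RLE scaling, no filter, the replicate block and DESeq2 each left 59 with direction and call, the 1 CPM filter 60 and voom 55, the compared libraries alone 48 of 57, and log2(TPM + 1) 6 of 51; leaving out 1 library left 409 of 468. The cause of these differences was not tested. Counts of members called moved as follows, with the number called over all genes in brackets, except where 1 library was left out. Without a filter, 4 were called for the change with day (1661 of 32488). DESeq2 called 4 on rod priming (2397 of 18150), 1 between rod days 21 and 35 (748) and 4 for the change with day (3012). Voom called 7 on rod priming (3768 of 18150), and 5 between cone and rod at each of days 0 (3200), 5 (3371) and 12 (4146). It called 1 between cone days 21 and 35 (2357), 6 from rod primed to day 5 (4896) and 9 between rod days 5 and 12 (6955). Between rod days 12 and 21 it called 2 (5892), and for the change with day 4 (4758). TPM gave 2 for the mean of days (437 of 19223), 1 for cone day 12 against 5 (1872), and 1 for day 35 against primed in cone (1519) and in rod cultures (1171). It gave 0 on rod priming (38), and 0 between cone and rod at days 0 (29), 12 (130), 21 (47) and 35 (51). It also gave 0 in the cone steps to days 5 (1750) and 21 (4), in the rod steps to days 5 (1386), 12 (180) and 21 (17), and for the change with day (44). Where a fit called few genes of any kind, a count of 0 says little about the members. The compared libraries alone gave 7 on rod priming (2912 of 14620) and at day 0 (2084 of 14305), 5 at day 5 (2780 of 15973) and 0 at day 12 (363 of 16011). They gave 6 from rod primed to day 5 (3901 of 14929), and 0 in the rod steps to day 12 (965 of 15869) and day 21 (1 of 15816). Leaving out 1 library gave 2 to 4 for the change with day, 0 to 1 between cone days 21 and 35, 1 to 3 from cone primed to day 5 and from rod primed to day 5, 1 to 4 between cone and rod at day 12, 0 to 5 between rod days 5 and 12, and 1 to 6 between rod days 12 and 21.

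Directions turned in these log2 fold changes. Tfap2b at day 35, cone over rod, was 0.0214 with the block and 0.5541 with voom. Voom gave, at day 12, -0.1399 for Prox1, 0.9672 for Lhx1, 0.8606 for Calb2, 1.5642 for Gad1 and 0.9794 for Slc32a1, and 0.0529 for Gad1 between rod days 12 and 21. The block gave 0.0521 for Gad1 at day 12 and 0.0217 for Slc32a1 at day 0. TPM gave -0.0571 for Prox1 and 0.1685 for Onecut2 on rod priming, 0.2214 for Slc32a1 at day 0 and 0.1428 at day 12, and for Onecut2 -0.109 at day 0, 0.0411 from cone primed to day 5, 0.1313 to day 35, 0.3809 between rod days 5 and 12 and 0.3101 from rod primed to day 35. Leaving out 1 library gave -0.9026 to 0.9674 for Calb2, -0.7538 to 1.888 for Gad1, -0.8579 to 1.091 for Slc32a1 and -0.3 to 1.6577 for Tfap2b at day 12, -1.0733 to 2.2436 for Tfap2b at day 35, -2.568 to 0.0034 for Gad1 between rod days 12 and 21, -2.3935 to 1.0193 for Onecut1 at day 21 and -0.458 to 0.5937 over the mean of days, -0.2318 to 0.0969 for Slc32a1 at day 0, and -0.231 to 0.219 for Tfap2a from cone primed to day 35.

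Same-numbered libraries had a mean correlation of deviations of 0.0242 over 165 pairs (different numbers -0.0122 over 330). The highest were 0.5129 and 0.4635, and 48 and 71 pairs lay over 0.1. A mean over all groups cannot exclude pairing within some of them, and the labels do not say what the numbers mark. With the replicate block the counts were 7 for the mean of days (5103 of 18150 genes) and 7 between cone days 5 and 12 (7962). They were 3 between rod days 5 and 12 (3344), 3 between rod days 12 and 21 (2107) and 3 for the change with day (1783). Of 19 counts, 0 moved by over 1.5 times. Depth limits Lhx1 and late Onecut1, Calb2 and Slc32a1, where a floor of 3 counts is 0.174 to 0.407 CPM.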
